A study of Mus musculus with 6 samples.

Results

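The integrin genes described here are 10 subunits of receptors for laminin, collagen and fibronectin: Itga1, Itga2, Itga3, Itga5, Itga6, Itgav, Itgb1, Itgb4, Itgb5 and Itgb6. They were chosen by gene symbol among the 41214 genes of the deposited table. No measured value entered the rule, but earlier results of these data were known when it was set. RNA came from cultured mouse mammary tumor explant cells. They go back to the NMuMG line of mouse mammary epithelium and express Neu-NT, a constitutively active ErbB2 receptor. Cells with a hairpin against CdGAP (genotype Neu-NT shCdGAP, 3 libraries) were compared with cells carrying a control hairpin (Neu-NT shCON, 3 libraries). Both groups therefore carry Neu-NT and a hairpin. Arhgap31 encodes CdGAP, which the study examined as a co-repressor of the E-cadherin gene. The cell type label of all 6 samples names the control hairpin, so the groups were taken from the titles, which match the genotype label. The labels do not give the number of hairpins, clones or tumors behind a group, nor whether replicates are separate cultures. The p-values therefore rest on the spread between the libraries alone, and that spread may be technical.

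Integrins are surface receptors made of 1 alpha and 1 beta subunit, and they tie the extracellular matrix to the actin cytoskeleton or, in hemidesmosomes, to keratin filaments. The beta 1 subunit pairs with many alpha subunits, whereas beta 4 is known to pair with alpha 6 alone. In mammary epithelium, laminin receptors hold cells on the basement membrane, collagen receptors bind fibrillar and basement membrane collagens, and alpha 5 beta 1 and the alpha v receptors bind fibronectin and other proteins with an RGD motif.

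The libraries held 19176540 to 26824249 gene-assigned reads. Replicate 1 of shCdGAP stood apart: across tested genes on the log2 scale its correlation was 0.948 with replicate 2 and 0.938 with replicate 3, against 0.996 between those 2, and genes are not independent replicates in these values. Arhgap31, the target of the hairpin, was at 0.149, 0.826 and 0.748 FPKM in shCdGAP and at 1.19, 1.30 and 1.35 FPKM in shCON, lower in every shCdGAP library. FPKM is a read level scaled to gene length and library depth, in the deposited values by a size factor per library and not by total reads. The Arhgap31 log2 fold change of -0.56 missed the threshold (adjusted p = 0.0836, limma). The epithelial markers summed to 4000 to 6550 FPKM in shCdGAP and 3620 to 5060 in shCON, nearly all of it Krt8, Krt18 and Krt19. Of the 8 epithelial markers, 2 were higher in shCdGAP, the E-cadherin gene Cdh1 (mean 168 against 50.7 FPKM, adjusted p = 0.0022, limma) and Krt7 (0.792 against 0.264, adjusted p = 0.0353). Epcam was lower, with a mean of 0.632 FPKM in shCON and 0 in each shCdGAP library, and Cldn3 was at 0 in every library. Endothelial markers summed to at most 0.304 FPKM, fibroblast markers to at most 1.10 and basal markers to at most 2.33 in any library. Leukocyte markers summed to 3.07 to 9.68 FPKM in shCdGAP and 13.2 to 17.9 in shCON, most of it Cd68, which fell, and the pan-leukocyte gene Ptprc was at most 0.0197 FPKM.

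All 10 members passed the filter on low genes. Of these, 2 were higher in shCdGAP, Itga1 and Itgb6, and 3 were lower, Itga3, Itga5 and Itga6, and 5 did not pass (limma on log2(FPKM + 1), adjusted p under 0.05 over 13483 tested genes). The same threshold was passed by 21% of all tested genes, 9.92% higher and 11.1% lower. The median log2 fold change was -0.36 over the members and -0.010 over all tested genes. The values of the groups did not overlap for 6 of the 10 members, against 44.1% of all tested genes. The authors' deposited DESeq2 comparison, which called 23.8% of the genes it adjusted, called 5 members, and all 5 were the ones named here, in the same direction.

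By level per length, Itga3 and Itgb1 stood above the other members in every library. The order of that pair differed between groups: Itga3 was the highest member in 3 of 3 shCON libraries and Itgb1 in 3 of 3 shCdGAP libraries. Itga6 had rank 3 of the 10 in each shCON library and rank 7 in each shCdGAP library. Itgb4 had rank 8 in each shCON library, and ranks 4, 3 and 6 in shCdGAP replicates 1, 2 and 3. Itga1 and Itgb6 were at the bottom, with Itgb6 last in each shCdGAP library and Itga1 last in each shCON library. In shCON the neighbouring means of Itga2 (30.2 ± 10.7 FPKM, SD, n = 3), Itgav (29.3 ± 3.72) and Itgb5 (28.9 ± 1.14) did not differ beyond their spread. In shCdGAP the same held for Itgb5 (25.3 ± 12.1), Itgb4 (24.4 ± 8.19), Itgav (21.3 ± 3.66) and Itga2 (21.02 ± 7.18). The sources used here do not give the gene lengths behind FPKM, and these set the levels of different genes against each other, though not the difference of 1 gene between groups.

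**Figure D1:**
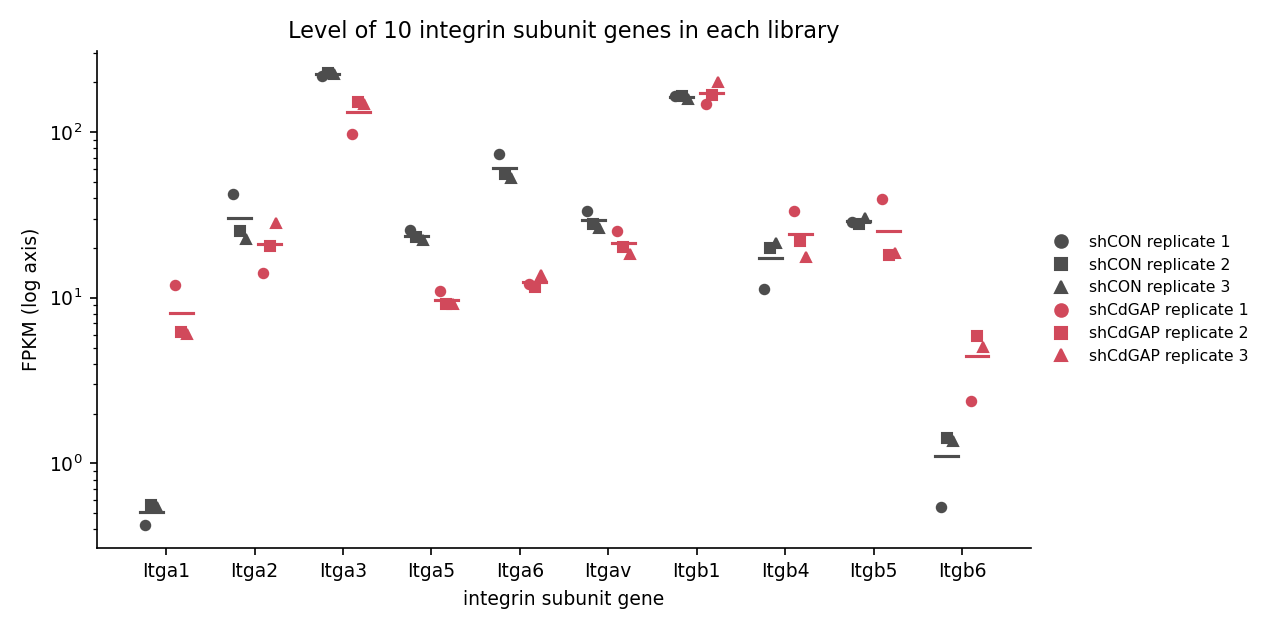
FPKM (log axis) of the 10 integrin subunit genes in each of the 6 libraries, with shCON in grey, shCdGAP in red, a marker shape for each replicate number and a bar at the group mean. The shCdGAP points lie wholly above shCON for Itga1 and Itgb6 and wholly below for Itga3, Itga5, Itga6 and Itgav.

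Among laminin receptor subunits, the alpha 6 gene fell and its partner beta 4 did not pass the test. Itga6 (ENSMUSG00000027111, chromosome 2, 71745616 to 71858416 of mm10, plus strand) measured 12.1, 11.6 and 13.6 FPKM in the shCdGAP libraries (in the order of replicates 1 to 3, here and for the other members) and 74.1, 55.8 and 52.6 FPKM in shCON. Every shCdGAP library lay far below every shCON library, and replicate 1 of shCdGAP sat between the other two. Means of 12.5 ± 1.06 and 60.8 ± 11.6 FPKM (SD, n = 3) made a 4.88-fold fall. On the log2 scale the change was -2.19 (SE 0.15, adjusted p = 4.54e-04, limma). It rested on 2299 to 13844 reads per library. Itga3 (ENSMUSG00000001507, chromosome 11, 95044474 to 95076801, minus strand), whose product pairs with beta 1 and binds laminin-332 and laminin-511, stood at 97.6, 151 and 148 FPKM in shCdGAP and at 218, 226 and 223 in shCON. All shCdGAP libraries were lower, replicate 1 the lowest, while the shCON libraries lay within a narrow band. Its means of 132 ± 30.0 and 222 ± 3.91 FPKM differed by -0.77 on the log2 scale (SE 0.18, adjusted p = 0.0319, limma). This call ended without shCdGAP replicate 2 (adjusted p = 0.0541), without shCON replicate 1, 2 or 3 (0.0966, 0.118 and 0.112) and with no filter on low genes (0.0526), at log2 fold changes of -0.88 to -0.76.

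Itgb4 (ENSMUSG00000020758, chromosome 11, 115974709 to 116008412, plus strand), the hemidesmosomal beta subunit, stood at 33.5, 22.1 and 17.6 FPKM in shCdGAP and at 11.2, 19.9 and 21.3 in shCON. The groups overlapped, and the libraries numbered 1 held the highest and the lowest value of all 6. The log2 fold change was 0.46 (95% interval -0.31 to 1.23, adjusted p = 0.362, limma), and it was -0.058 without both libraries numbered 1.

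Among collagen receptor subunits, alpha 1 rose and alpha 2 did not pass. Itga1 (ENSMUSG00000042284, chromosome 13, 114953096 to 115101964, minus strand), whose product with beta 1 prefers type IV collagen, stood at 12.0, 6.18 and 6.01 FPKM in shCdGAP from 1638, 812 and 894 reads. In shCON it stood at 0.424, 0.559 and 0.543 FPKM, from 49, 92 and 87 reads. Each shCdGAP library lay above each shCON library, with replicate 1 the highest. The means of 8.06 ± 3.39 and 0.509 ± 0.0739 FPKM (SD, n = 3) made a 15.8-fold rise, which the log2(FPKM + 1) scale shrinks to 2.53 log2 units (SE 0.25, adjusted p = 0.00163, limma). On recovered reads the log2 fold change was 3.89 (limma-voom). The gene Pelo lies within Itga1 on the same strand and had 565 to 1122 reads of its own, so reads from shared stretches of the 2 genes are uncertain.

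Itga2 (ENSMUSG00000015533, chromosome 13, 114833081 to 114932100, minus strand), the neighbour of Itga1 and a subunit for type I collagen, stood at 14.1, 20.5 and 28.4 FPKM in shCdGAP and at 42.4, 25.5 and 22.6 in shCON. The groups overlapped, with the lowest and the highest value in the libraries numbered 1. The log2 fold change was -0.50 (95% interval -1.29 to 0.28, adjusted p = 0.329, limma), and 0.0100 without both of those libraries.

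Among receptors for fibronectin and other RGD proteins, alpha 5 fell and beta 6 rose. Itga5 (ENSMUSG00000000555, chromosome 15, 103344286 to 103366763, minus strand), the alpha subunit of the main fibronectin receptor, stood at 10.96, 9.15 and 9.11 FPKM in shCdGAP and at 25.6, 23.3 and 22.3 in shCON. Both groups were tight and well apart. The means were 9.74 ± 1.05 and 23.7 ± 1.68 FPKM (SD, n = 3), a 2.44-fold fall, or -1.20 on the log2 scale (SE 0.11, adjusted p = 0.00118, limma). Itgb6 (ENSMUSG00000026971, chromosome 2, 60598292 to 60722643, minus strand), an epithelial partner of alpha v that binds latent TGF-beta and fibronectin, stood at 2.39, 5.86 and 5.06 FPKM in shCdGAP and at 0.546, 1.43 and 1.37 in shCON. The lowest library of each group was the one numbered 1. The groups did not overlap, and the means of 4.43 ± 1.82 and 1.12 ± 0.495 FPKM made a 3.97-fold rise (log2 fold change 1.33, SE 0.32, adjusted p = 0.0330, limma). That call ended without shCdGAP replicate 2 or 3 (adjusted p = 0.102 and 0.0857), without shCON replicate 1, 2 or 3 (0.106, 0.0836 and 0.0862) and with no filter on low genes (0.0559), at log2 fold changes of 1.11 to 1.44.

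Itgav (ENSMUSG00000027087, chromosome 2, 83724397 to 83806916, plus strand), the shared alpha subunit of vitronectin receptors, stood at 25.4, 20.2 and 18.3 FPKM in shCdGAP and at 33.5, 27.9 and 26.4 in shCON. The groups did not overlap, and the library numbered 1 was the highest of each. The log2 fold change of -0.45 (95% interval -0.83 to -0.065, adjusted p = 0.0988, limma) missed the threshold. It passed without shCdGAP replicate 1 (adjusted p = 0.00995), without both libraries numbered 1 (0.00292) and in the fit blocked on replicate number (0.0425). Itgb5 (ENSMUSG00000022817, chromosome 16, 33829665 to 33949338, plus strand), a partner of alpha v, stood at 39.3, 18.0 and 18.6 FPKM in shCdGAP and at 28.6, 27.9 and 30.2 in shCON. Replicates 2 and 3 of shCdGAP lay below the shCON libraries and replicate 1 above them. The log2 fold change was -0.28 (95% interval -1.003 to 0.45, adjusted p = 0.562, limma) and -0.63 without shCdGAP replicate 1 (adjusted p = 0.00119).

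Itgb1 (ENSMUSG00000025809, chromosome 8, 128685654 to 128733200, plus strand), the shared beta subunit, stood at 147, 167 and 200 FPKM in shCdGAP and at 165, 164 and 158 in shCON. The groups overlapped. The log2 fold change was 0.066, with a 95% interval of -0.26 to 0.39 (adjusted p = 0.767, limma), and its sign changed with quantile scaling (-0.045) and without shCdGAP replicate 3 (-0.052).

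**Figure D2:**
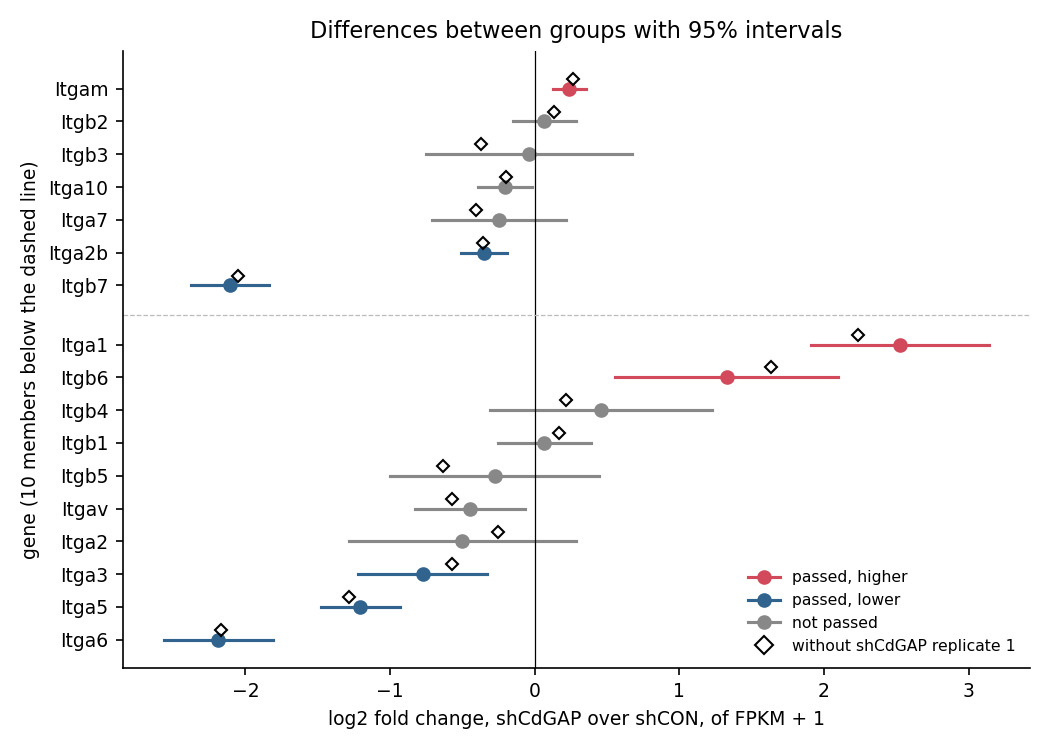
Log2 fold change of FPKM + 1, shCdGAP over shCON, with 95% intervals from the limma fit for the 10 members (below the dashed line) and the 7 other integrin subunit genes that were tested. Diamonds give the value without shCdGAP replicate 1, which lies within the interval of each member, for Itgb5 at -0.63 against -0.28 with all libraries.

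Ratios between partner subunits were formed within each library, so they do not depend on library scaling. The 12 ratios share subunits, most of them Itgb1, so they are not separate observations. Of the 12, 8 had groups that did not overlap. Among single tested genes the share was 44.1%, which is not a background for ratios. Ratios of other gene pairs were not formed, so no excess can be read from this count. An exact 2-sided permutation test of 3 against 3 libraries cannot go below p = 0.10, so no ratio could pass, and each of these 8 had p = 0.1 (adjusted p = 0.15 over the 12). Itga6 over Itgb4 was 0.363, 0.524 and 0.777 in shCdGAP and 6.59, 2.80 and 2.48 in shCON, so that the alpha 6 value exceeded the beta 4 value in each control library and lay under it in each depleted one. The ratio was 6.76-fold lower in shCdGAP by the mean of logs. Itga3 over Itgb1 was 0.664, 0.907 and 0.736 in shCdGAP and 1.33, 1.38 and 1.41 in shCON. Itga5 over Itgb1 was 2.55-fold lower and Itga6 over Itgb1 5.06-fold lower in shCdGAP, whereas Itga1 over Itgb1 was 14.4-fold higher. Itgav over Itgb6 ran from 3.45 to 10.6 in shCdGAP and from 19.3 to 61.3 in shCON. Itga2 over Itgb1 was barely apart, at 0.0958 to 0.142 in shCdGAP and 0.143 to 0.257 in shCON. The ratios of Itgav, Itgb4 and Itgb5 to Itgb1 and of Itgav to Itgb5 overlapped between groups (exact permutation p = 0.3, 0.5, 0.4 and 0.6). Within replicate numbers, Itgav over Itgb1 was lower in shCdGAP in 3 of 3 pairs, at 0.173 against 0.203, 0.121 against 0.170 and 0.0914 against 0.167. The other 3 of these ratios differed in direction between pairs. An exact 2-sided paired permutation test of 3 pairs cannot go below p = 0.25, the value for Itgav over Itgb1 and for each of the 8 ratios without overlap.

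**Figure D3:**
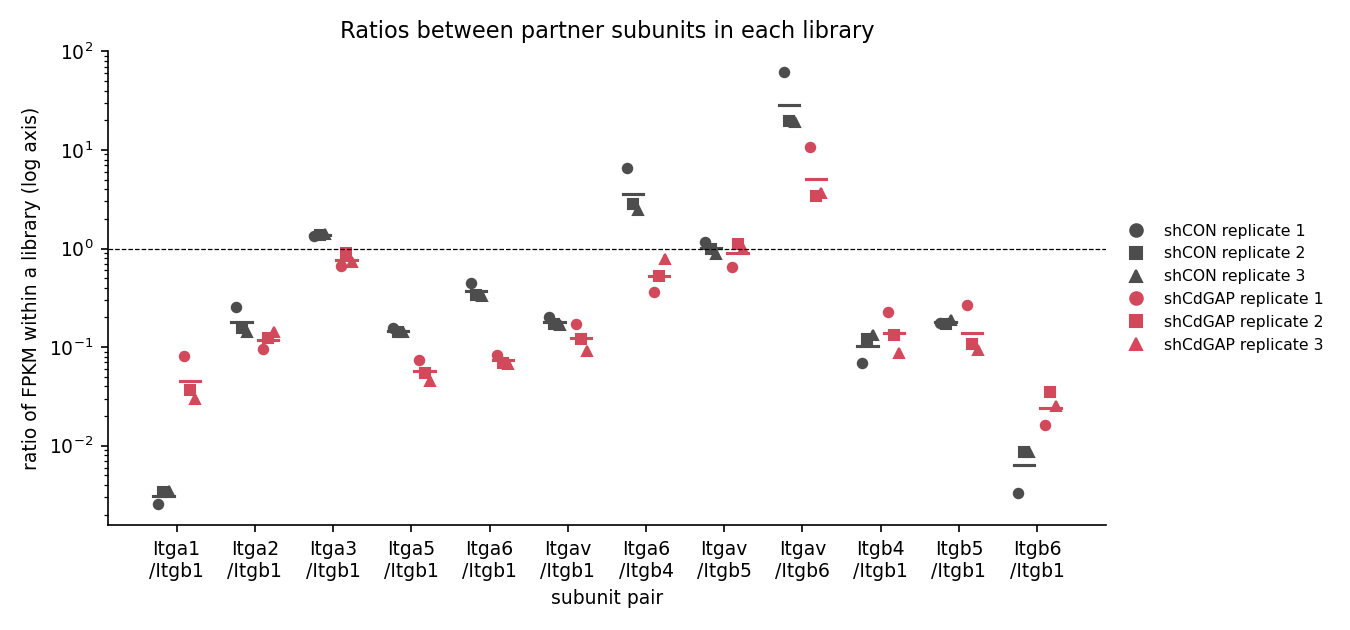
Ratio of FPKM of 2 subunits within each library (log axis) for 12 pairs, with shCON in grey, shCdGAP in red, a marker shape for each replicate number and a bar at the geometric mean. The dashed line marks equal FPKM, which Itga6 over Itgb4 and Itga3 over Itgb1 cross between the groups.

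The 6 alpha subunits, all of which can pair with beta 1, summed to 172, 219 and 223 FPKM in shCdGAP and to 394, 359 and 348 in shCON, a sum formed after the single values were seen. Every shCdGAP sum lay under every shCON sum. The means were 205 ± 28.3 and 367 ± 24.3 FPKM (SD, n = 3; exact permutation p = 0.1, the smallest possible). Over Itgb1, the sum was 1.20 ± 0.103 in shCdGAP and 2.26 ± 0.118 in shCON. Itga3 made up 64.0 ± 6.47% of the sum in shCdGAP and 60.8 ± 4.77% in shCON, Itga6 6.16 ± 0.876% and 16.5 ± 2.01%, and Itga1 4.16 ± 2.42% and 0.140 ± 0.0280%. The 4 beta members summed to 225 ± 14.7 FPKM in shCdGAP and 210 ± 4.40 in shCON (exact permutation p = 0.2).

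**Figure D4:**
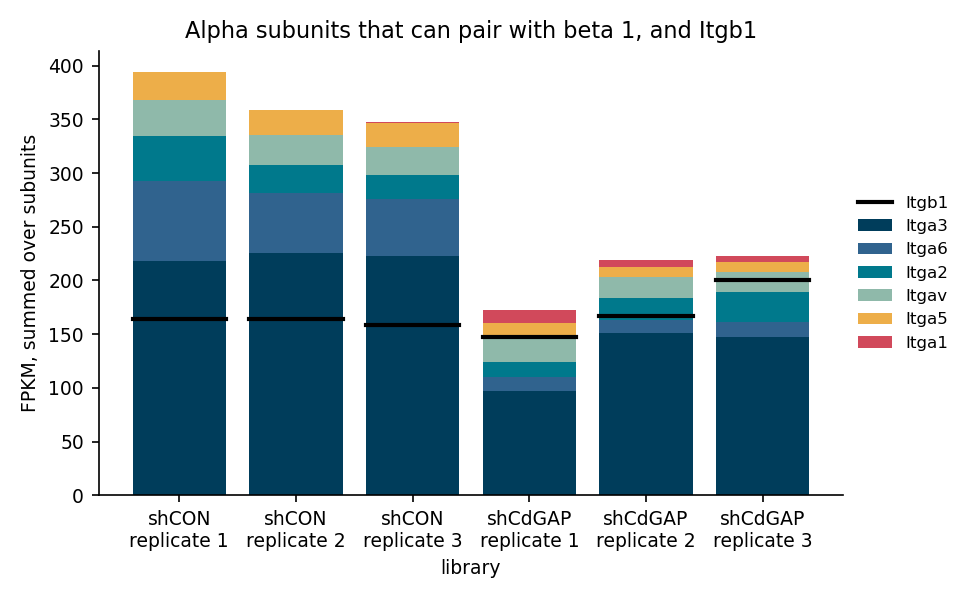
FPKM of the 6 alpha subunit genes stacked for each library, with a black line at the FPKM of Itgb1. The stacks reach 348 to 394 FPKM in shCON and 172 to 223 in shCdGAP, while the Itgb1 line stays between 147 and 200.

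Promoters were searched because the study concerns repression of Cdh1, and the repressors of that gene in the Zeb and Snail families bind the E-box CACCTG. RefSeq promoters (build GRCm38.p6, the same assembly as mm10), running from 250 bases before to 50 bases after a start, were found for 8 of the 10 members, in 10 windows. Itga6 and Itgb4 had none in the table. Those of both members that rose, Itga1 and Itgb6, and the first window of Itga3, which fell and holds the motif, are printed 5′ to 3′ with CACCTG (either strand) in capitals.
Itga1 (chr13:115101915-115102214, minus strand): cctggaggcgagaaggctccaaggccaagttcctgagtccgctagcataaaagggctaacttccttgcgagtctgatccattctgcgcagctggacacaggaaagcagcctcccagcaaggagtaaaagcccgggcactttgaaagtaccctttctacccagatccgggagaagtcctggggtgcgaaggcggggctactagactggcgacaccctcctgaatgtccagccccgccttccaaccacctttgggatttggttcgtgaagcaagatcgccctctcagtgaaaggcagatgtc
Itgb6 first start (chr2:60722554-60722853, minus strand): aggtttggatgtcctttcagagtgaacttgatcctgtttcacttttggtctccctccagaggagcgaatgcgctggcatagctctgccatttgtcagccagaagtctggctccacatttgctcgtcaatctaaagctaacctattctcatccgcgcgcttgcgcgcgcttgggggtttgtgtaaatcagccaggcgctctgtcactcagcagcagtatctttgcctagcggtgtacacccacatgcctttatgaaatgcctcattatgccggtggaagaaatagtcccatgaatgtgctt
Itgb6 second start (chr2:60673644-60673943, minus strand): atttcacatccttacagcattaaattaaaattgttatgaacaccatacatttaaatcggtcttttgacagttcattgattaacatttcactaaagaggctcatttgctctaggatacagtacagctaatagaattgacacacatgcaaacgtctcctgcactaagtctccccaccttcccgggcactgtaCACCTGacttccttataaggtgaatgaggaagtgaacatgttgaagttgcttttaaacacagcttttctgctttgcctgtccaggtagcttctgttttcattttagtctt
Itga3 (chr11:95076665-95076964, minus strand): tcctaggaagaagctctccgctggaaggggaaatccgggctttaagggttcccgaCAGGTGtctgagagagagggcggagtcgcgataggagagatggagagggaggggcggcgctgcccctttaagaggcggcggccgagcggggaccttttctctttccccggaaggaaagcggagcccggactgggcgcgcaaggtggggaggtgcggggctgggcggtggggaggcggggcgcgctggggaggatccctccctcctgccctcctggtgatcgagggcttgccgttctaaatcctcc
CACCTG was found in 3 of the 10 member windows, those of Itga3, Itgb5 and Itgb6, and in 20.2% of all 32851 windows. In Itgb6 it lay only in the window of the second start. The window of Itga1, the member with the larger rise, held no match. TGANTCA, the AP-1 site, was in 1 of the 10 member windows, the second of Itga3, and in 7.81% of all windows. The GC box GGGCGG was in 7 of the 10 member windows, from 6 of the 8 members (all but Itga1 and Itgb6), and in 35.7% of all windows. TATAAA was in 0 of the 10 member windows and in 13.6% of all. A match is a run of letters and not a measured site, no other motif was searched, and the motifs do not overlap in the printed windows.

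Of 16 other integrin subunit genes, 7 were tested, with 1 higher and 2 lower, beside 9.92% higher and 11.1% lower over all tested genes. Their median log2 fold change was -0.21, against -0.010 over all tested genes. Itgb7, a beta subunit best known from lymphocytes, stood at 0.526, 0.598 and 0.851 FPKM in shCdGAP and at 5.95, 6.36 and 6.05 in shCON. The groups were far apart, a 9.29-fold fall (log2 fold change -2.11, adjusted p = 1.68e-04, limma). Of the 7 leukocyte markers, 0 were higher and 1 was lower, Cd68, from a mean of 14.0 to 5.08 FPKM. Csf1r went the other way without passing (mean 0.383 FPKM in shCON, 0.786 in shCdGAP). Ptprc was at most 0.0197 FPKM in any library. Whether leukocytes had a part in the Itgb7 values was not tested. Itga2b, the platelet alpha subunit, fell from 0.657 ± 0.0975 to 0.300 ± 0.0188 FPKM (SD, n = 3; adjusted p = 0.0142, limma), a call lost without shCdGAP replicate 2 (0.0635) or shCON replicate 2 (0.0550). Itgam, a myeloid alpha subunit, rose from 0.0334 ± 0.0193 to 0.221 ± 0.0398 FPKM (adjusted p = 0.0160), a call lost in limma without trend and robust (0.0719) and on leaving out shCdGAP replicate 2 (0.0641) or either of shCON replicates 2 and 3 (0.0713 and 0.0771). Itgb3, the other main partner of alpha v, was at 12.8, 6.97 and 5.12 FPKM in shCdGAP and at 7.67, 8.37 and 8.04 in shCON, with replicate 1 of shCdGAP again the highest (log2 fold change -0.041, adjusted p = 0.941, limma). Its sign changed without shCdGAP replicate 2 (0.028) or 3 (0.22). Itga7, a laminin receptor subunit, Itga10, a collagen receptor subunit, and Itgb2, the leukocyte beta subunit, did not pass (log2 fold changes -0.25, -0.21 and 0.068). The other 9 had at most 10 reads in any library, and Itga8 and Itgb8 had 0 in all 6, which allows up to 3 reads per library (counting error only).

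Cytoplasmic partners of integrins moved in both directions. Of 26 tested activators and adhesion adaptors, 6 were higher and 2 lower in shCdGAP (median log2 fold change 0.034, against -0.010 over all tested genes). Of the 3 kindlin genes, whose products bind beta tails and help to activate integrins, 2 rose: Fermt1 from 11.7 ± 0.577 to 26.4 ± 1.58 FPKM and Fermt2 from 15.2 ± 0.626 to 24.5 ± 0.920 (SD, n = 3; adjusted p = 8.28e-04 and 0.00444, limma). Fermt3, named after its value was seen, had means of 0.914 ± 0.369 (shCdGAP) and 0.580 ± 0.0754 FPKM (shCON), with overlapping groups, and did not pass (adjusted p = 0.294, limma). The tensins, which bind beta tails, were split, with Tns1 6.01-fold higher (log2 fold change 1.48) and Tns4 2.67-fold lower (-0.74). Tns2 and Tns3 are named after their values were seen. Tns2 was 1.40-fold lower (log2 fold change -0.47, adjusted p = 0.0287, limma), and Tns3 did not pass (adjusted p = 0.709, limma). The counts for this list were 11 and 8 without shCdGAP replicate 1, where 39.9% of all tested genes were called, and 3 and 1 without shCON replicate 2 or 3, where 9.17% and 9.88% were, against 21% with all libraries.

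Of 17 tested adhesion kinases and signalling adaptors, 2 were higher and 3 lower (median -0.025), beside 9.92% higher and 11.1% lower over all tested genes, which is also the background for the lists that follow. The docking proteins Nedd9 and Bcar1, which carry signals from focal adhesion kinase, rose from 3.45 ± 0.135 to 11.4 ± 5.07 FPKM and from 40.3 ± 0.467 to 78.0 ± 18.9 (SD, n = 3). The kinase gene Src and the adaptor gene Crkl fell, with log2 fold changes of -0.59 and -0.64 (adjusted p = 0.00636 and 0.0111, limma). The calls on Nedd9 and Bcar1 were lost without shCdGAP replicate 2 or any shCON library (adjusted p = 0.0554 to 0.0797), and that on Crkl without shCON replicate 2 or 3 (0.0609 and 0.0517).

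Of 12 tested membrane partners, 3 were higher and 0 lower (median 0.13), beside 21% called in either direction over all tested genes. They were the tetraspanin Tspan8, from 23.6 ± 1.75 to 121 ± 10.0 FPKM, caveolin Cav1, from 67.5 ± 1.66 to 140 ± 14.1, and Slc3a2, the CD98 heavy chain that binds beta 1 tails, from 88.0 ± 4.09 to 118 ± 7.03 (SD, n = 3; adjusted p = 1.18e-04, 0.00172 and 0.0271, limma). The call on Slc3a2 was lost without any 1 library other than shCdGAP replicate 1 (adjusted p = 0.0645 to 0.135), with the block (0.0506) and with quantile scaling (0.0567). Of 9 tested hemidesmosome genes, 3 were lower, Itga6, Dst and Krt5, and Lamb3 was higher. Dst, whose epithelial form ties integrins to keratins, fell by 0.60 on the log2 scale (adjusted p = 0.0239, limma), a call lost without any 1 library other than shCdGAP replicate 1 (0.0661 to 0.107). Krt5, a basal keratin, fell from 0.607 ± 0.124 to 0.0131 ± 0.0114 FPKM. Of the 7 basal markers it was the 1 that was lower, and Cnn1 was higher (mean 1.34 against 0.0270 FPKM, adjusted p = 0.0227, limma), with list sums of 0.719 to 2.33 FPKM in shCdGAP and 0.587 to 0.748 in shCON. The tetraspanin Cd151, a partner of the laminin receptors named here after its value was seen, stood at 102 ± 1.54 and 100 ± 9.44 FPKM in shCdGAP and shCON and did not pass (adjusted p = 0.914, limma).

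Genes for the ligands of these receptors also went both ways. Of 8 tested laminin chains, 1 was higher and 1 lower (median -0.094): Lamb3, of laminin-332, rose from 25.5 ± 1.73 to 40.8 ± 6.67 FPKM, and Lamb1 fell from 2.23 ± 0.380 to 0.317 ± 0.0262 (SD, n = 3; adjusted p = 0.0266 and 7.34e-04, limma). The call on Lamb3 was lost without shCdGAP replicate 3 or any shCON library (adjusted p = 0.0674 to 0.115). Of 7 tested collagens, Col6a1 and Col6a2 rose 4.91-fold and 4.26-fold, and Col5a1 and Col4a2 fell 3.43-fold and 1.43-fold. Col4a2 no longer passed when shCON replicate 2 or 3 was left out (limma adjusted p = 0.0670 and 0.0627). Further chains of collagens VI and IV, Col6a3 and Col4a1, are named after their values were seen and did not pass. Col6a3 had means of 0.0236 FPKM in shCdGAP and 0.128 in shCON (adjusted p = 0.0709, limma). Col4a1 had means of 29.4 and 26.8 FPKM (adjusted p = 0.330, limma). Of 11 tested RGD proteins and related ligands, Fn1 rose 3.65-fold, to 39.5 ± 4.53 FPKM, where its receptor subunit Itga5 was lower. Tgfb3, whose latent form binds alpha v beta 6, rose 5.80-fold, to 5.24 ± 1.44 FPKM, where Itgb6 was higher. Tgfb1, of the same list and named after its value was seen, stood at a higher level and did not pass. Its means were 18.4 ± 2.03 FPKM in shCdGAP and 16.6 ± 2.42 in shCON (adjusted p = 0.502, limma). Npnt, encoding the ligand nephronectin, fell 1.85-fold, to 33.6 ± 2.73 FPKM.

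**Figure D5:**
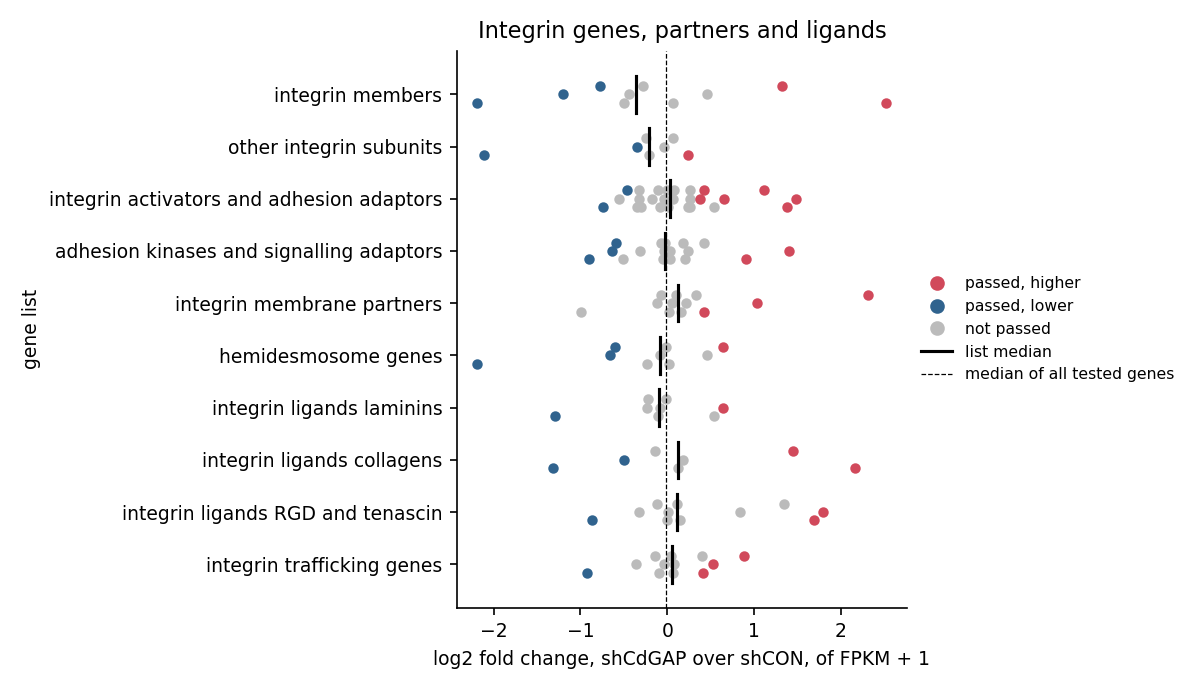
Log2 fold change of FPKM + 1, shCdGAP over shCON, for each tested gene of 10 lists, coloured by whether it passed the limma test, with a black bar at each list's median and a dashed line at the median of all tested genes (-0.010). Each list holds points on both sides of the line, and the lowest median is that of the integrin members (-0.36).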

How the data were processed

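Total RNA of 6 libraries, 3 of shCdGAP and 3 of shCON, was sequenced. Per the submitters' processing notes, the authors used Trimmomatic, TopHat2 2.0.13, featureCounts and DESeq2 with mm10, in roles and an order that the notes leave out. The sources used here name no annotation release and no strand setting. The authors deposited 1 table with an FPKM value per gene and library. The deposited table adds the authors' DESeq2 comparison, per the file headers: mean signal, log2 fold change and SE, score, p-value and adjusted p-value. Reads were recovered from FPKM, the mean signal and a size factor fitted per library, and 100% of values came out whole (tolerance 1e-06). Gene positions are from GENCODE M21, which holds 40254 of the identifiers.

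The filter asked for 10 reads (at median depth) in 3 or more libraries and 15 reads over all libraries, and 13483 of the 22322 genes with reads met it. The test was limma 3.58.1 (R 4.3.3) on log2(FPKM + 1), with trend and robust empirical Bayes, 2-sided, adjusted by Benjamini-Hochberg over all tested genes at 0.05. This scale understates changes of low genes. Means are given ± SD over 3 libraries. Intervals are 95% intervals of the moderated estimate. The step was also run on simulated reads with the same dispersion for all genes and no outlying library. That run cannot show how the test behaves with a library like shCdGAP replicate 1. Python 3.11.15, numpy 2.4.6, pandas 2.3.3, scipy 1.17.1 and matplotlib 3.10.9 were used for tables, permutation tests and plots.

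Same-numbered libraries deviated together from their group means (correlations of 0.43 for number 1, 0.39 for number 2 and 0.34 for number 3). The main fit ignored the numbers. They served as pairs only in an alternative fit and in the paired comparison of ratios. The pairing comes from the data and not the labels. Numbers 2 and 3 were poorly told apart: shCdGAP replicate 2 correlated at 0.35 with shCON replicate 3, and shCdGAP replicate 3 at 0.27 with shCON replicate 2. A fit with the number as a block was an alternative, with other pseudocounts, filters, scalings and tests and with libraries left out.

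The members and lists were chosen with earlier results of these data known. All members, every other tested integrin subunit, Arhgap31, and up to 4 changed genes of each further list (smallest p first) are named; other names are marked where they stand, apart from cell type markers, Pelo and genes that give a list's makeup.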

Additional observations from a re-analysis of the deposited data

How the results depend on the processing

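Of the 10 members, 5 changed in the main test. Itga1, Itga5 and Itga6 passed in all 17 fits, the main one included, and Itga2, Itgb1 and Itgb4 in 0. Itga3 passed in 12, Itgb6 in 11, Itgav in 3 and Itgb5 in 2. With no filter on low genes 3 members changed, 1 of them higher. Leaving out 1 library gave 3 to 7 changed members, 1 to 2 higher and 2 to 5 lower. Without both libraries numbered 1, 5 members were lower. Of 103 tested genes in the other lists (other integrin subunits, partners, ligands and trafficking genes), 34 changed, beside 21% of all tested genes. That count was 19 to 55 when 1 library was left out and 62 without both libraries numbered 1. The count over all tested genes moved likewise, from 2838 to 5373 without shCdGAP replicate 1, 1476 without shCdGAP replicate 2, 1724, 1237 and 1332 without shCON replicate 1, 2 or 3, and 6506 without both libraries numbered 1. As a share of tested genes, these fits called 9.17% to 48.3%. With the replicate number as a block, 6 members changed, Itgav being the addition, and 2458 of all genes. The block ended the calls on Slc3a2 and Vps35 (adjusted p = 0.0506 and 0.0715, limma). It changed no other call on a gene named by the rule given above. For the ratios, a paired permutation test by replicate number, chosen after seeing the data, gave p = 0.25 at the lowest. The scalings moved the median of all genes to between -0.052 and 0.013. Itga1 rested on 49 to 92 reads per shCON library and Itgb6 on 75 to 280, which limits the precision of their folds.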

Other observations

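Genes for the traffic of integrins between the surface and endosomes had 3 of 12 tested members higher and 1 lower in shCdGAP (limma, adjusted p under 0.05). Over all tested genes, 9.92% were higher and 11.1% lower. The median log2 fold change of the traffic list was 0.056. Rab11a, of the slow recycling route, rose from 52.4 ± 3.24 to 98.2 ± 11.2 FPKM (SD, n = 3), and Rab21, a GTPase that binds alpha subunit tails, fell from 68.8 ± 4.96 to 35.6 ± 1.51 (adjusted p = 0.0042 and 0.00189, limma). Snx17, which sends beta 1 back to the surface, and the retromer gene Vps35 rose by log2 fold changes of 0.53 and 0.41. The call on Snx17 was lost without shCdGAP replicate 2 or shCON replicate 2 or 3 (adjusted p = 0.0548, 0.0962 and 0.0834), and that on Vps35 without any 1 library other than shCdGAP replicate 1 (0.0617 to 0.160), with library size or quantile scaling (0.0589 and 0.0771), with no filter (0.0593) and with the block.

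The libraries numbered 1 differed from the rest of their group in some members. Against the mean of the other libraries of its group, Itgb6 was at 0.437 times in shCdGAP replicate 1 and 0.390 times in shCON replicate 1, and Itgav at 1.32 and 1.23 times, so both moved the same way in both groups. Itga2 was at 0.575 and 1.76 times, and Itgb4 at 1.69 and 0.547 times, so these moved opposite ways. Itgb5 was at 2.15 times and Itga1 at 1.96 times in shCdGAP replicate 1, and at 0.986 and 0.769 times in shCON replicate 1. Arhgap31 was also lowest in shCdGAP replicate 1, and the part of that library's depletion in these values was not tested.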
